A study of Danio rerio with 2 samples.

Results

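The genes of the hair cell (HC) ribbon synapse were compared between GFP(+) and GFP(−) cells of zebrafish larvae. The members were found in the table by name, from a set of symbols put together with earlier results of these data known. A row of the deposited table counted as a member when its symbol, or its Ensembl gene name, was OTOF, slc17a8, CTBP2, CACNA1D, cabp2b, CABP1, CABP5, BSN or PCLO, with a final a or b ignored. Of these 9 symbols, 7 matched 12 of the 17668 genes in the table. CACNA1D, the pore-forming subunit of the Cav1.3 channel, and CABP1 matched no row and were not analysed here. For each of them 2 identifiers carry the name, and none had a row. The title of the deposited table names a minimum of 40 reads, so a gene without a row may have had fewer. Whether this was so was not tested.

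Both libraries came from larvae of the ppv3b:GFP transgenic line at 5 dpf, which were dissociated with trypsin and separated by flow cytometry into GFP(+) and GFP(−) cells. The transgene drives GFP predominantly, and thus not exclusively, in HCs, both those of the ear and those of the neuromasts (the sensory organs of the lateral line). The labels call the GFP(+) cells HCs and the GFP(−) cells non-HCs. The cells were sorted by GFP, so the GFP(−) library holds the other cells of the whole larva, and HCs with little GFP are not excluded from it. There was 1 library per population, so the differences given here could not be tested over replicates. In bulk libraries such as these, fewer cells of a type and less RNA per cell cannot be told apart.

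A ribbon synapse releases transmitter continuously and in proportion to the receptor potential. In an HC, movement of the hair bundle depolarizes the cell, calcium enters through Cav1.3 channels below the ribbon, and vesicles tethered to the ribbon fuse and release glutamate onto the afferent fibre. The ribbon itself is built mostly from Ribeye, a product of the CTBP2 gene. Photoreceptors and bipolar cells of the retina also have ribbons, with partly different channels, calcium sensors and transporters, and these cells are part of the whole larva that was sorted.

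Values are read counts per gene after the authors' quantile normalization and floor of 20, named normalised reads below. That normalization makes the distributions of both libraries identical (lowest value 20, median 186, highest value 978726), so the sequencing depth of each library and the counting error are unknown. Over all genes the log2 ratio between GFP(+) and GFP(−) values had a median of −0.10. The GFP(+) column had a lower limit of use that bears on some members. Its values of up to 52.5, held by 3741 genes or 21.2% of the table, never fell from 1 row of the table to the next (0 falls), whereas the GFP(−) values up to the same limit fell 1122 times. At the next value, 53.0, the GFP(+) column had 18 falls. A GFP(+) value of up to 52.5 was therefore read only as an upper limit of 52.5. With such values set to 52.5, the median log2 ratio of all genes was 0.16, the reference for the medians given with the limit. The GFP(−) column was checked at 52.5 only, and a shorter ordered range was not searched for in it.

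A list of HC markers was set beside the labels. It was chosen with earlier results of these data known and is no independent check of them. Of 27 genes matched, 22 were higher in GFP(+) cells by 3-fold or more, against 16.9% of all genes. By the deposited values 1 was at least 3-fold lower, against 16.4% of all genes. The median log2 ratio of the 27 was 3.17. The latter gene, GFI1B (ENSDARG00000079947), was matched through its final b, and its GFP(+) value of 41.0 was below the limit. MYO7A (ENSDARG00000044632) was also lower, with 69.0 normalised reads in GFP(+) against 84.5 in GFP(−) cells and a log2 ratio of −0.29. Markers of other cells that use regulated release were mostly lower in GFP(+) cells. The summed value of the photoreceptor list was 3898 in GFP(+) and 46542 in GFP(−) cells over 22 genes, that of the neuron list 1325 and 10080.5 over 15 genes, that of the retinal bipolar cell list 596 and 2164 over 9 genes, and that of the neuroendocrine list 1780.5 and 14842.5 over 13 genes. krt4 (ENSDARG00000017624), a keratin gene of the larval skin that was chosen after its values were seen, stood at the top of the GFP(+) library, at 978726 against 73615 normalised reads. The part of these other cells in the results was not tested.

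Of the 12 ribbon synapse genes, 6 were higher and 6 were lower in GFP(+) cells. Of all 17668 genes, 8385 were higher and 9260 lower, which is also near an even division. The higher members were SLC17A8, both OTOF genes, cabp2b, cabp5b and the gene named CTBP2. The lower members were the genes of the large scaffolds BSN and PCLO, with cabp2a, cabp5a and ctbp2a. The pairs of genes matched to CABP2, CABP5 and CTBP2 thus had a gene in each set. Of the 12 members, 6 were at least 3-fold higher, against 16.9% of all genes in the table. A difference of 10-fold or more upwards was found for 4 of the 12, against 4.69% of all genes. By the deposited values 3 of the 12 were at least 3-fold lower, against 16.4% of all genes. When the upper limit of 52.5 was used, 2 of the 12 were, against 2505 of all 17668 genes. The log2 ratios ran from −2.62 to 5.38 with a median of 0.56, and no member had a ratio between −0.57 and 1.69, so that the median stood in a gap and described no member. With the 7 members that carry a deposited symbol the median was −0.57, and with the copies of each symbol summed it was 1.41 and 3 of the 7 symbols were at least 3-fold higher.

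**Figure D1:**
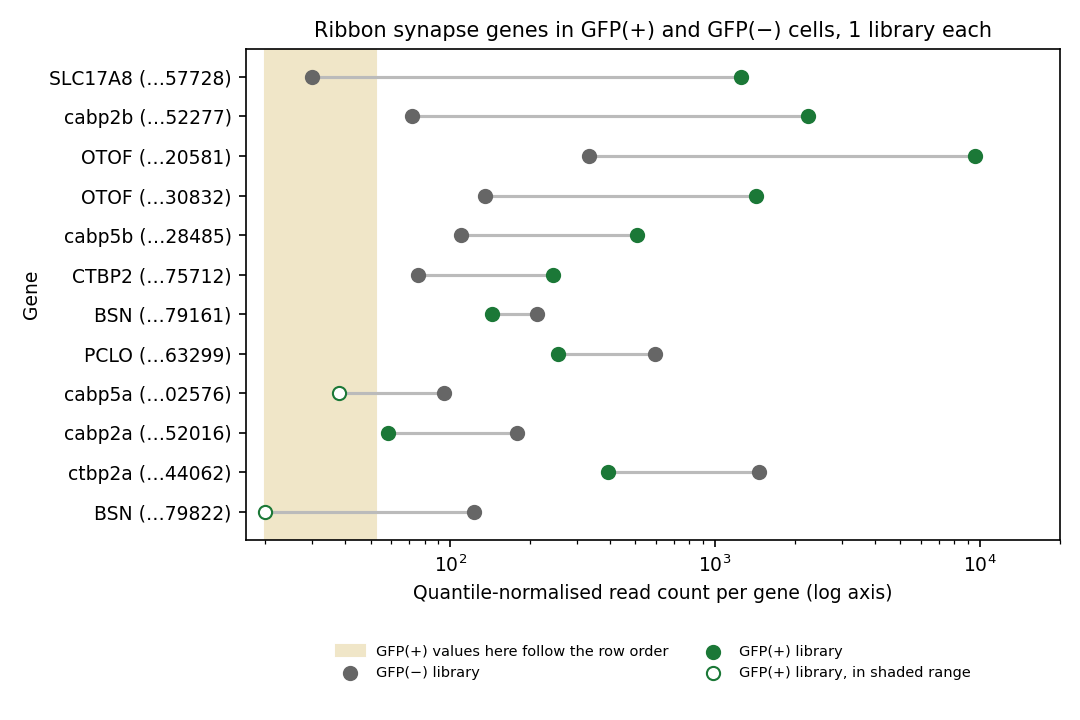
Normalised reads per gene (log axis) of the 12 ribbon synapse genes in the GFP(+) library (green) and the GFP(−) library (grey), 1 library each, sorted by ratio, with the last 5 digits of the Ensembl identifier. The upper 6 genes were higher in GFP(+) cells by 3-fold or more, and the open symbols of cabp5a and of 1 BSN gene lie in the shaded range of up to 52.5, where GFP(+) values are upper limits only.

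Among the genes of vesicle filling and fusion, the vesicular glutamate transporter came first by the deposited values. SLC17A8 (ENSDARG00000057728) encodes Vglut3, which loads glutamate into HC synaptic vesicles and without which zebrafish and mouse HCs do not signal to their afferents. Its value was 1248.5 normalised reads in the GFP(+) library and 30.0 in the GFP(−) library, a 41.6-fold difference and a log2 ratio of 5.38. By the deposited values this ratio ranked at place 100 of the 17668 genes, and all 27 HC markers had a lower one. For 3 of these markers the ratio is a lower bound, because the GFP(−) value was the floor. The GFP(−) value of SLC17A8 lay near the floor of 20, so that the size and place of its ratio depend on it. With 20 added to both values the log2 ratio was 4.67, and with 100 added it was 3.37. Its place among the markers was not taken again with these constants.

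Otoferlin is a membrane-anchored protein with many C2 domains that couples calcium to vesicle fusion in HCs, and its loss causes deafness in humans. Zebrafish carry a pair of otoferlin genes, and both were higher in GFP(+) cells. OTOF ENSDARG00000020581 stood at 9574.0 normalised reads in the GFP(+) library against 334.5 in the GFP(−) library. OTOF ENSDARG00000030832 stood at 1429.0 against 135.0. The former was thus 28.6-fold and the latter 10.6-fold higher. The difference between their log2 ratios, in which gene length cancels, was 1.44, or 2.70-fold. Neither GFP(−) value was at the floor. With the values of the pair summed, OTOF had 11003 normalised reads in GFP(+) and 469.5 in GFP(−) cells, a 23.4-fold difference.

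Of the calcium-binding proteins, the CABP genes encode EF-hand relatives of calmodulin that bind voltage-gated calcium channels and slow their inactivation. CABP2 is a deafness gene in humans. Its zebrafish copies stood far apart. cabp2b (ENSDARG00000052277) had 2242.5 normalised reads in GFP(+) against 71.5 in GFP(−) cells and was 31.4-fold higher, at place 186 of all ratios. cabp2a (ENSDARG00000052016) had 58.0 against 178.5 and was 3.08-fold lower. The value of 58.0 lay only just above the limit of 52.5. The log2 ratios of the copies differed by 6.59, the widest gap among the 5 symbols with a pair of genes.

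CABP5, which in mouse is known from retinal bipolar cells, divided in the same manner. cabp5b (ENSDARG00000028485) had 505.5 normalised reads in GFP(+) against 110.0 in GFP(−) cells and was 4.60-fold higher. With 100 added to both values its log2 ratio was 1.53, under the 3-fold limit. cabp5a (ENSDARG00000002576) had 94.5 in GFP(−) cells, and its GFP(+) value of 38.0 was an upper limit only. Against 52.5 it was at least 1.80-fold lower. The log2 ratios of the copies then differed by at least 3.05. Retinal bipolar cell markers were lower in GFP(+) cells as well, as given above, and their part in the cabp5a value was not tested.

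**Figure D2:**
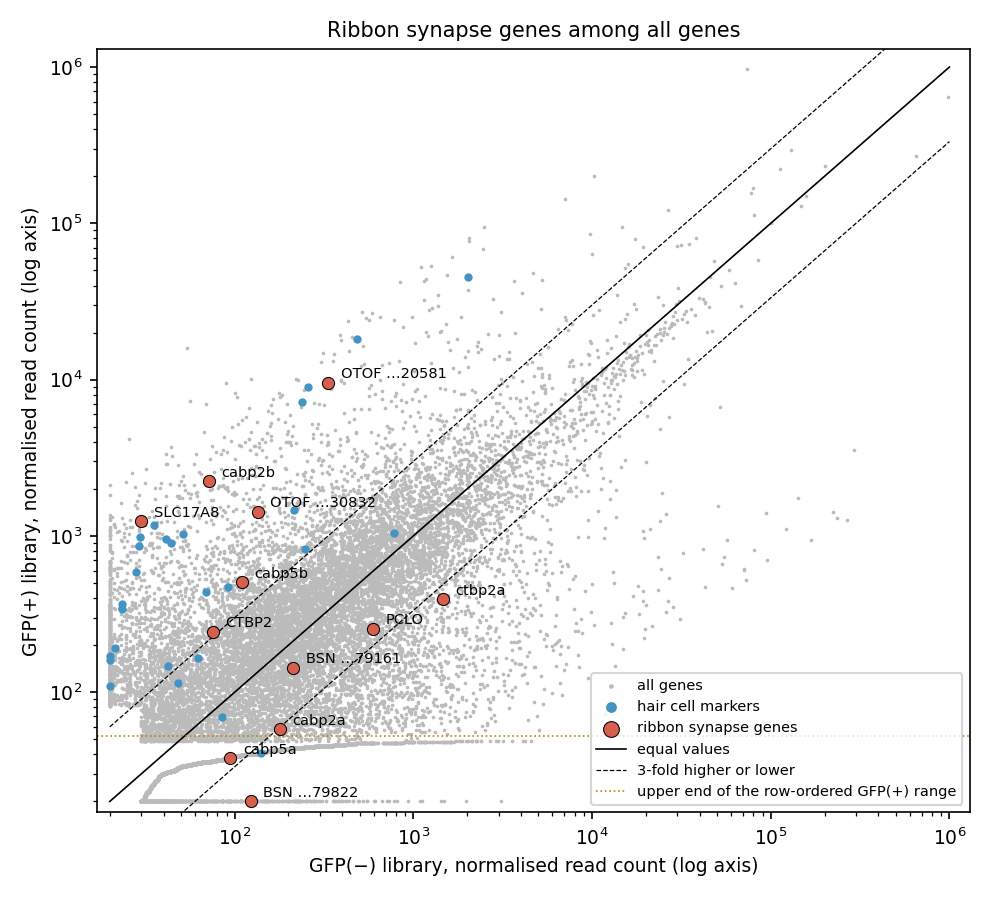
GFP(+) against GFP(−) normalised reads per gene (both axes log) for all 17668 genes (grey), the 27 genes of the HC marker list (blue) and the 12 ribbon synapse genes (red, named). SLC17A8, cabp2b and both OTOF genes stand among the HC markers above the dashed line of a 3-fold difference, ctbp2a and cabp2a stand below the lower one, and the dotted line marks 52.5, below which the GFP(+) values follow the row order of the table.

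The genes named CTBP2 and ctbp2a differed in direction. The name ctbp2l was matched by no row. The gene named CTBP2 carried a deposited symbol only. Whether it is ctbp2l, and whether it is the copy of ctbp2a, was not tested. In vertebrates the CTBP2 locus encodes both Ribeye, from an alternative start with a domain of its own, and the transcriptional corepressor CtBP2, which is widely expressed and shares the remaining sequence. Counts per gene do not separate these transcripts. CTBP2 ENSDARG00000075712 had 244.0 normalised reads in GFP(+) against 75.5 in GFP(−) cells and was 3.23-fold higher. With 20 or 100 added to both values its log2 ratio was 1.47 or 0.97, under the 3-fold limit. ctbp2a (ENSDARG00000044062) had 395.5 against 1460.5 and was 3.69-fold lower. The log2 ratios of these genes differed by 3.58. With both summed, the symbol was 2.40-fold lower in GFP(+) cells, with 639.5 against 1536.0 normalised reads. The genes matched to this symbol thus went opposite ways, and the sum followed ctbp2a. CTBP1, a related corepressor gene, was matched by 2 genes. ctbp1 (ENSDARG00000057007) was 3.73-fold lower in GFP(+) cells, with 901.0 against 3361.0 normalised reads, and CTBP1 ENSDARG00000019213 was 1.21-fold lower, with 337.5 against 407.0.

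The scaffolds Bassoon and Piccolo are very large proteins of the presynaptic active zone, and in mouse HCs Bassoon helps to anchor the ribbon to the membrane. Both are also made by conventional synapses throughout the brain, and none of their genes matched here was higher in GFP(+) cells. Of 2 identifiers named PCLO, only 1 had a row, so the other PCLO gene has no value here. Of 2 identifiers named BSN, likewise only 1 had a row, and the other BSN row was matched by its deposited symbol. BSN ENSDARG00000079161 had 143.5 normalised reads in GFP(+) against 213.0 in GFP(−) cells, which was 1.48-fold lower, with a log2 ratio of −0.57. BSN ENSDARG00000079822 had 123.0 in GFP(−) cells and the floor value, 20, in GFP(+) cells. Against the limit of 52.5 it was at least 2.34-fold lower. PCLO ENSDARG00000063299 had 255.0 normalised reads in GFP(+) against 592.0 in GFP(−) cells, a 2.32-fold lower value. The GFP(+) values of BSN ENSDARG00000079161 and PCLO were above the limit, as were those of 9 of the 15 neuron markers, and the summed value of the neuron markers was 7.61-fold lower in GFP(+) cells. The part of neuronal RNA in the GFP(−) values of BSN and PCLO was not tested.

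Set in order of ratio, the members were SLC17A8, cabp2b, OTOF ENSDARG00000020581, OTOF ENSDARG00000030832, cabp5b and CTBP2, followed by BSN ENSDARG00000079161, PCLO, cabp5a, cabp2a, ctbp2a and BSN ENSDARG00000079822. The places of cabp5a and of the last BSN gene are not fixed, because their GFP(+) values are upper limits. The order of SLC17A8, cabp2b and OTOF ENSDARG00000020581 also changed when a constant was added to both values. With 20 added their log2 ratios were 4.67, 4.63 and 4.76, and with 100 added 3.37, 3.77 and 4.48. The spread between libraries of 1 population is unknown, and which neighbours in this order differ beyond it cannot be stated. The genes with values most like those of SLC17A8 were found by the distance between log2 values in both libraries over 15562 named genes. The nearest were si:ch211-232i5.1 (ENSDARG00000078072), with 1295.0 and 30.5 normalised reads in GFP(+) and GFP(−) cells at a distance of 0.06, si:ch73-50f9.4 (ENSDARG00000087251), with 1203.5 and 29.0 at 0.07, and si:ch211-232i5.3 (ENSDARG00000086874), with 1312.5 and 30.0 at 0.07. These rest on 1 pair of values per gene.

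Other components of the presynaptic active zone were taken from a list of ribbon and active zone partners. Of 22 genes matched, GFP(+) values were at least 3-fold higher for 1, against 16.9% of all genes. By the deposited values 4 were at least 3-fold lower, against 16.4% of all genes, and the median log2 ratio was −0.71. With the limit of 52.5, 3 of the 22 were at least 3-fold lower, against 2505 of all 17668 genes. The GFP(+) values of 12 of the 22 were upper limits, and with these at 52.5 the median was −0.35. The gene that stood apart was ERC2 ENSDARG00000090308, which encodes a scaffold (CAST) that binds Bassoon, Piccolo and RIM. Its GFP(+) value was 473.0 normalised reads, its GFP(−) value was the floor of 20, and the gene was thus at least 23.6-fold higher. Next came RIMBP2 ENSDARG00000001154, which links RIM to calcium channels, with 231.5 against 123.5 normalised reads and a log2 ratio of 0.91. UNC13B ENSDARG00000086274, a vesicle priming factor, had 491.0 against 272.0 and a log2 ratio of 0.85. These log2 ratios were under the 3-fold limit of the comparison. At the lower end, RIMS1 ENSDARG00000074680, the RIM scaffold, had 102.5 normalised reads in GFP(+) against 607.5 in GFP(−) cells, a log2 ratio of −2.57. PPFIA3 (ENSDARG00000077053), a liprin, had 73.0 against 311.5 and a log2 ratio of −2.09. ctbp1 was the third from the end.

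**Figure D3:**
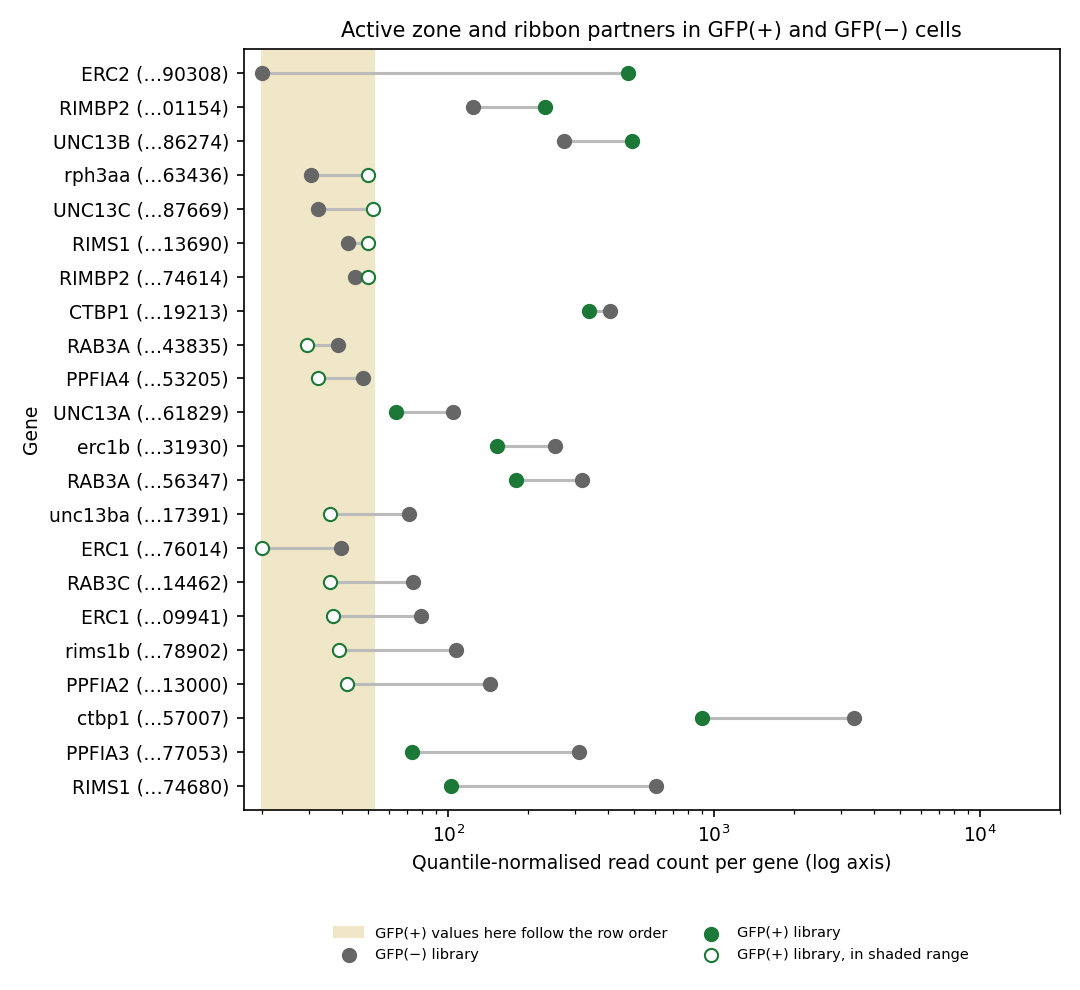
Normalised reads per gene (log axis) of the 22 active zone and ribbon partner genes in the GFP(+) library (green) and the GFP(−) library (grey), sorted by ratio. ERC2 is the only gene of the list at least 3-fold higher in GFP(+) cells, and the open symbols mark the 12 genes whose GFP(+) values are upper limits.

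CACNA1D was not analysed here, and the other calcium channel genes were examined in its place. The HC channel is built from the Cav1.3 pore with an intracellular β subunit (CACNB) and an extracellular α2δ subunit (CACNA2D). Of 21 genes matched, 1 was at least 3-fold higher, against 16.9% of all genes. By the deposited values 7 were at least 3-fold lower, against 16.4% of all genes. With the limit of 52.5 there were 5 such genes, against 2505 of all 17668. The GFP(+) values of 12 of the 21 were at or below that limit. The median log2 ratio was −1.23, and −0.82 with the limit. CACNB3 (ENSDARG00000076030), a β subunit, was the exception. Its values were 273.0 and 28.0 normalised reads in GFP(+) and GFP(−) cells, a 9.75-fold difference. Of the other β subunits, CACNB1 (ENSDARG00000002167) had 55.5 against 372.5 normalised reads and a log2 ratio of −2.75. The GFP(+) values of cacnb4b (ENSDARG00000062174) and cacnb2b (ENSDARG00000055565) were upper limits, against GFP(−) values of 674.0 and 177.0. In mouse HCs the CACNB2 subunit is the one known to be required. cacnb2b, the only CACNB2 gene matched, was at least 3.37-fold lower in GFP(+) cells, and any other copy was not examined here.

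None of the α2δ genes was higher in GFP(+) cells by 3-fold or more. CACNA2D4 (ENSDARG00000026855) had 55.0 against 49.5 normalised reads, a 1.11-fold difference. cacna2d1a (ENSDARG00000014804) had 76.0 against 212.5, and the other 4 had GFP(+) values at or below the limit. Among the pore-forming subunits of the same L-type family, CACNA1C (ENSDARG00000008398), the cardiac and neuronal channel, had a GFP(−) value of 174.5, and the GFP(+) value was an upper limit. The same held for CACNA1F (ENSDARG00000023683), the photoreceptor channel, with 93.0 in GFP(−) cells. Its copy cacna1fa (ENSDARG00000010933) had 123.5 against 152.5 normalised reads. No L-type pore gene matched by name was higher in GFP(+) cells by 3-fold or more.

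**Figure D4:**
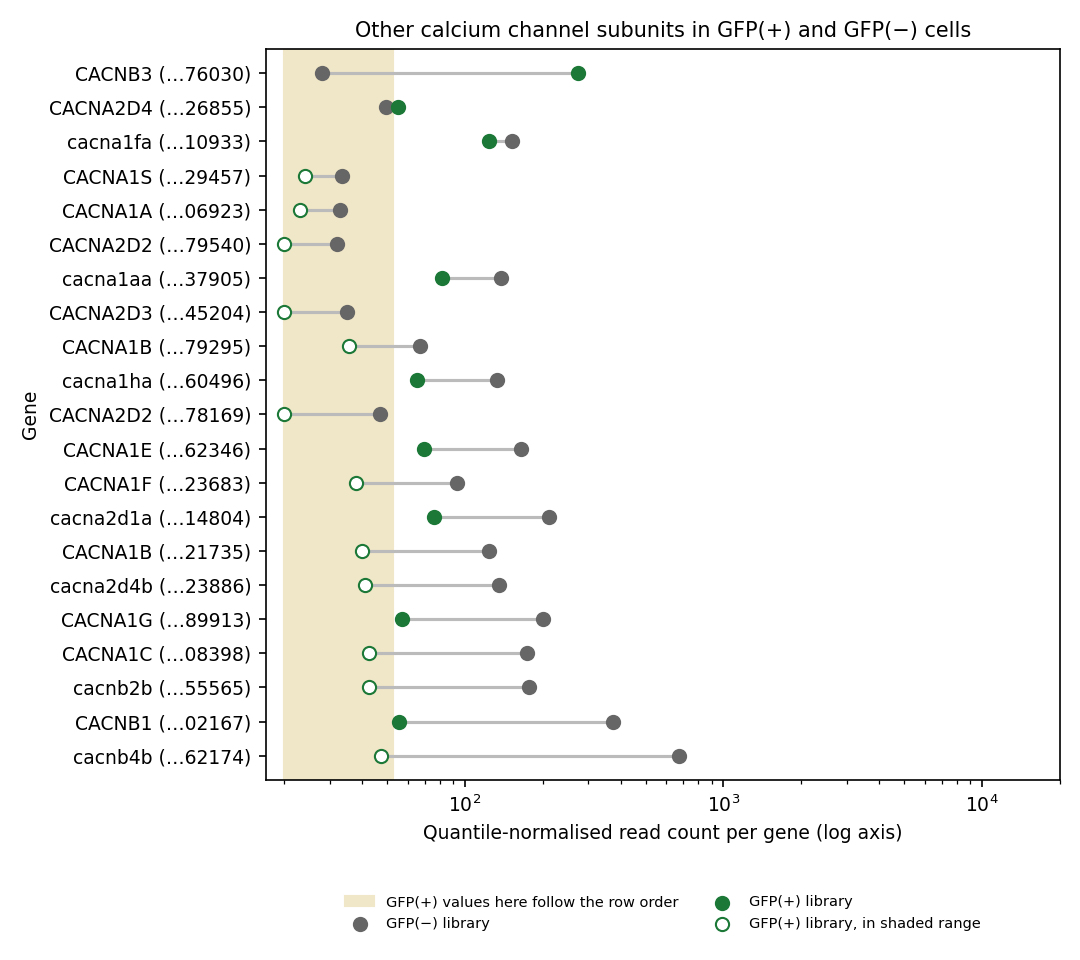
Normalised reads per gene (log axis) of the 21 other calcium channel subunit genes in the GFP(+) library (green) and the GFP(−) library (grey), sorted by ratio. CACNB3 is the only gene at least 3-fold higher in GFP(+) cells, with 273.0 against 28.0, and the open symbols mark the 12 genes whose GFP(+) values are upper limits.

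The relatives of SLC17A8 and OTOF that serve other cells did not share their ratios. Of the 6 genes of other vesicular transporters, none was higher in GFP(+) cells. By the deposited values 3 of the 6 were at least 3-fold lower, against 16.4% of all genes. The GFP(+) values of all 6 were at or below 52.5, and their median log2 ratio was −1.43, or −1.14 with the limit. SLC17A6 ENSDARG00000041150, a glutamate transporter of neurons, had 511.5 normalised reads in GFP(−) cells and was at least 9.74-fold lower in GFP(+) cells. SLC17A7 ENSDARG00000090106 had 174.5 in GFP(−) cells and was at least 3.32-fold lower. Of the vesicular glutamate transporter genes matched by name, SLC17A8 alone had a GFP(+) value above the limit. Of 4 genes of other ferlins, a family of membrane fusion and repair proteins, none was at least 3-fold higher, and their median log2 ratio was −0.15, or 0.16 with the limit. MYOF ENSDARG00000006112 had 339.0 against 178.5 normalised reads, fer1l4 (ENSDARG00000076952) had 66.0 against 48.5, and the GFP(+) values of DYSF (ENSDARG00000007370) and of MYOF ENSDARG00000017128 were upper limits.

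The proteins that conventional synapses use for fusion were mostly lower in GFP(+) cells. Of 20 genes matched, none was at least 3-fold higher and 14 were at least 3-fold lower in GFP(+) cells, and the median log2 ratio was −2.51, or −2.26 with the limit of 52.5. SYT1 (ENSDARG00000030614), the calcium sensor of neurons, had 975.5 normalised reads in GFP(−) cells, and its GFP(+) value was an upper limit, so that it was at least 18.6-fold lower. vamp2 (ENSDARG00000056877), the vesicle SNARE, had 306.5 against 416.0 and a log2 ratio of −0.44. Both SNAP25 genes kept values above the limit in GFP(+) cells, 118.0 (ENSDARG00000058117) and 66.5 (ENSDARG00000020609), against 780.5 and 740.0 in GFP(−) cells. The summed value of neuron markers moved with this list, and its part was not tested.

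Among other EF-hand calcium sensors, none of 13 genes was at least 3-fold higher, against 16.9% of all genes. At least 3-fold lower were 3 of the 13, against 16.4% of all genes. The GFP(+) values of 4 of the 13 were upper limits, and the median log2 ratio was −0.55, or −0.16 with the limit. calm1b (ENSDARG00000034187), a calmodulin gene, had the highest ratio, with 2337.0 against 1140.0 normalised reads and a log2 ratio of 1.04. CALM2 ENSDARG00000015050 and calm3b (ENSDARG00000074057) had log2 ratios of 0.27 and 0.19. The calcium buffer gene calb2b (ENSDARG00000036344) was at least 7.25-fold lower. No cabp4 gene, the photoreceptor member of the CABP family, was matched.

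A further list, put together around HC release and its efferent control, held 9 genes. Whether each of them acts in release was not tested. Of these, 4 were higher in GFP(+) cells by 3-fold or more, against 16.9% of all genes. None was at least 3-fold lower, against 16.4% of all genes, and the median log2 ratio was 0.13. GIPC3 (ENSDARG00000053074), a deafness gene of mouse and human, had 705.5 against 29.0 normalised reads and a log2 ratio of 4.60. CHRNA9 (ENSDARG00000054680), a subunit of the cholinergic receptor through which efferent fibres inhibit HCs, had 467.0 in GFP(+) cells and the floor value in GFP(−) cells, at least 23.4-fold higher. CLRN2 (ENSDARG00000070321), a tetraspan protein of HCs, had 122.5 and likewise the floor value. nsfb (ENSDARG00000038991), the ATPase that takes SNARE complexes apart, had 796.0 against 263.0 normalised reads, at 3.03-fold only just past the limit. Its copy NSF (ENSDARG00000007654) had 244.5 against 466.0. Copies of 1 gene thus differed in direction here as well. DMXL2 (ENSDARG00000091293), which serves vesicle acidification, had 491.5 against 450.5 normalised reads. SYNJ1 (ENSDARG00000025011), which serves vesicle recycling, had 744.0 against 794.5. get1 (ENSDARG00000074271), which inserts tail-anchored proteins such as otoferlin, had 92.0 against 173.0.

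**Figure D5:**
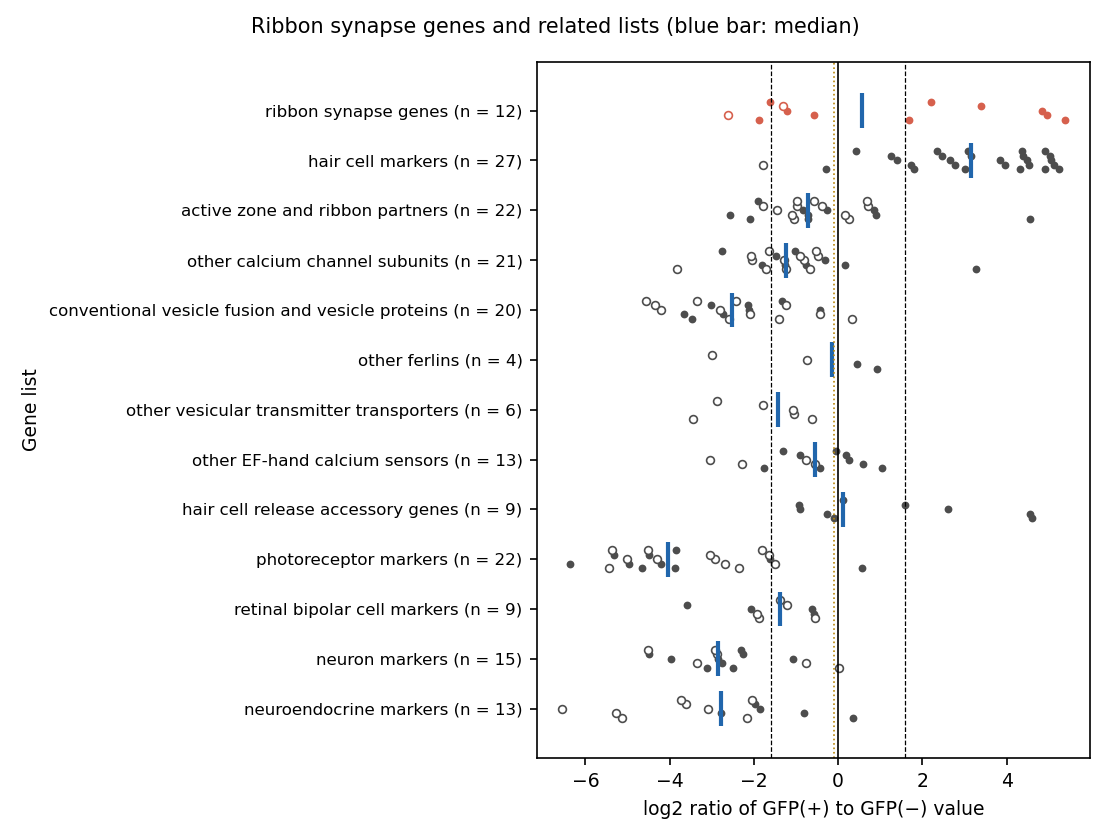
Log2 ratio of GFP(+) to GFP(−) values for the 12 ribbon synapse genes (red) and 12 related lists, each point a gene, with the list's median as a blue bar, the 3-fold limits dashed and the median of all genes (−0.10) dotted; open symbols are genes whose GFP(+) value is an upper limit. The HC markers have a median of 3.17, the conventional vesicle fusion genes one of −2.51, and the ribbon synapse genes fall into a higher and a lower set of 6 each. Of all 17668 genes, 8385 were higher and 9260 lower.

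The remaining lists had median log2 ratios of −4.04 (photoreceptor), −1.37 (retinal bipolar cell), −2.85 (neuron) and −2.77 (neuroendocrine markers) by the deposited values. With the limit the medians were −4.02, −0.92, −2.71 and −2.77, in the same order. By the deposited values 16.4% of all genes were at least 3-fold lower. Of these lists, 20 of the 22, 4 of the 9, 12 of the 15 and 11 of the 13 genes were. With the limit, 18, 3, 12 and 11 were. The GFP(+) values of 12, 5, 6 and 8 genes of these lists were upper limits. None of these lists had a gene at least 3-fold higher in GFP(+) cells. The part of the cells that these lists mark in the values of the members was not tested. By the deposited values, 21 of the 27 HC markers had a lower ratio than OTOF ENSDARG00000020581 and 14 a lower one than OTOF ENSDARG00000030832. A lower ratio than cabp5b was found for 7 and a lower one than CTBP2 for 5.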

How the data were processed

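RNA-seq libraries from GFP(+) and GFP(−) cells of larvae were used, 1 library per population. By the paper's description, TopHat placed the reads on Zv9 and HTSeq gave a read count for each Ensembl gene. It places the floor of 20 after the quantile normalization. What was deposited is a normalised signal per gene rather than a count, and versions of the tools are not given in the sources used here. The title of the table names a minimum of 40 reads, the floor and the normalization, in that order. This differs from the order in the paper, and which order was used was not tested. Depth cannot be recovered. Names came from the deposited symbols (3758 genes) and from a table of identifiers (14593 of 17668 matched). Of the members, 7 were named by a deposited symbol and 5 by the identifier table only. List symbols were matched with or without a final a or b. Genome coordinates and sequences were not used here.

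The ratio of the deposited values was taken without a pseudocount, and 3-fold was the limit for counts of genes. GFP(+) values no higher than 52.5 were replaced by 52.5 for bounds on a fold, and a fold against the floor of 20 in GFP(−) cells is a lower bound. With 1 library per population no test was made. All rows of the members are named, and from each list up to 3 genes with the highest and up to 3 with the lowest ratio, and counterparts of the members, were eligible, of which not every one is reported. The members and lists were chosen with earlier results of these data known. Alternatives were pseudocounts of 20 and 100, a minimum mean of 100, GFP(+) values of up to 48 set to 48, centring on the median of all genes, summed copies, and names from 1 source only. The limit of 52.5 was chosen after seeing the data. The code that counts genes past the 3-fold limit was tested on simulated data. Python 3.11.15 with numpy 2.4.6, pandas 2.3.3 and matplotlib 3.10.9 was used. Some genes that the rule for named genes would name are not reported here.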

Additional observations from a re-analysis of the deposited data

How the results depend on the processing

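The 6 members at least 3-fold higher numbered 5 with 20 added to both values, 4 with 100 added, and 5 with names from the identifier table only. CTBP2 fell under the limit with 20 added, and cabp5b as well with 100 added. The members at least 3-fold higher numbered 3 when the copies of 1 symbol were summed and 3 with deposited symbols only, which leave 7 members. The share of all genes at least 3-fold higher, 16.9%, holds for the deposited values. It was not counted under these alternatives, so the member counts under them have no reference. Under each alternative on the values the same number of members, 6, was higher in GFP(+) cells. The median log2 ratio of the members was 1.95 with a minimum mean of 100, which leaves 10 members, 1.41 with summed copies and −0.57 with deposited symbols only. The 3 members at least 3-fold lower numbered 2 with 20 added and 1 with 100 added. Centring raised all log2 ratios by 0.10, which left 2 members at least 3-fold lower in place of 3, since cabp2a lost its place.

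With 100 added to both values, the medians of the lists were 1.83 for hair cell markers, −0.48 for other calcium channel subunits, −1.43 for conventional vesicle proteins, −0.62 for other vesicular transporters, −2.85 for photoreceptor, −0.53 for retinal bipolar cell, −1.69 for neuron and −1.74 for neuroendocrine markers. With a minimum mean of 100, they were 4.33 for hair cell markers, −2.88 for other vesicular transporters and 0.93 for other ferlins. The median of the 4 ferlins, −0.15, was also positive when low GFP(+) values were raised to 48 (0.10) or to 52.5 (0.16). The median of all genes was likewise 0.16 with the limit of 52.5. Of the GFP(+) values, those of cabp5a and of BSN ENSDARG00000079822 are upper limits, and the log2 ratio of the latter was −1.36 with a value of 48 and −1.23 with 52.5. No paired analysis was possible because each population has 1 library, and leaving out a library was not possible for the same reason. Depth is unknown, so no counting error can be given for any value.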
